A study of Mus musculus with 11 samples.

Results

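Contacts between lamin B1 and 40 genes of striated muscle, most of them of the contractile apparatus, were read from a map of the lamina. Lamin B1 is a filament protein that lines the inner nuclear membrane. The members were chosen by symbol from a deposited table of gene regions. All 40 symbols were found. They hold 41 of the 21534 regions of the table, because the titin gene Ttn is listed with a wide region and with a narrow region nested in it. The 41 regions lie on 13 chromosomes, and every one matched a protein-coding gene in RefSeq. They encode the myosin heavy and light chains, myosin-binding proteins C, sarcomeric actins and alpha-actinins, troponins, giant and intermediate filament proteins, the calcium store and its release channels, muscle creatine kinase and myoglobin, and the 4 myogenic transcription factors.

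The cells were oligodendrocyte precursor cells, the glial progenitors that make myelin-forming oligodendrocytes, taken from the cortex of C57BL/6 mice at postnatal day 7. The OL group (oligodendrocyte) carried a lentiviral fusion of Dam, a bacterial adenine methyltransferase, to LMNB1 for 1 day and then spent 72 h in differentiation medium (T3 in the labels). The OPC group carried the same Dam-LMNB1 vector and spent those 72 h in proliferation medium (PF). Each Dam-LMNB1 group has 3 libraries, numbered 18, 19 and 20 in OL and 8, 9 and 10 in OPC. Libraries with untethered Dam, which marks any DNA that free enzyme can reach, are the control of each condition, with 3 in OL (12, 13 and 14) and 2 in OPC (2 and 4). All groups are labelled WT and all cells carried a Dam vector. The Dam control of each condition was kept in that condition's medium, and the comparison of OL with OPC compares these media in cells of 1 starting type.

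Each deposited score sets 1 Dam-LMNB1 library against the pooled untethered Dam libraries of its own condition. A score above 0 is read as more methylation by Dam-LMNB1 than by Dam, and so as lamina contact. No log base is stated, so values are in score units and no fold is given. A region runs from about 10000 bp before a gene's start to 2000 bp after its end, which was exact at the start in 50.2% and at the end in 64.2% of the regions set against RefSeq, and exons, introns and UTRs share its score. Coordinates are those of mm10. The mean score over all regions was −0.79, −0.88 and −0.87 in OL libraries 18, 19 and 20, and −0.92, −0.94 and −0.92 in OPC libraries 8, 9 and 10. OL library 18 had the narrowest spread over regions, with an SD of 1.46 against 1.53 to 1.59 in the other 5 libraries. Read depth is unknown, the 3 libraries of a condition share 1 Dam denominator, and nothing in the labels tells whether the libraries were grown as separate cultures. The p-values therefore measure only the spread between these Dam-LMNB1 libraries, which may be technical. The score measures DNA contact, not expression, so it could not check the labelled cell type, and it says nothing of whether a muscle gene was transcribed.

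A sarcomere is built from thick filaments of myosin and thin filaments of actin, anchored at the Z-disc by alpha-actinin and spanned by titin. Calcium released from the sarcoplasmic reticulum through ryanodine receptors binds troponin C on the thin filament and lets myosin pull. Skeletal fast, skeletal slow and cardiac fibres use different paralogs of most of these proteins. The genes are switched on in the skeletal lineage by the myogenic bHLH factors MYOD1, MYF5, MYF6 and MYOG, which bind E-box sequences, CANNTG. DNA at the lamina lies mostly in gene-poor domains of low transcription, and in glia the muscle genes are genes of another lineage.

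The promoters of 4 genes are printed because these genes carry the main contrasts in the scores below. Myl1 was the member whose libraries lay above 0 in OL and below 0 in OPC, Actc1 and Myf5 lay above 0 in both, and Myog lay below 0 in both. Each window runs from 250 bases before to 50 after the annotated start, 5′ to 3′ on the gene's strand (RefSeq, GRCm38.p6). Capitals mark GATC, the sequence Dam methylates, and CANNTG, the E-box.
Myl1 (chr1:66945007-66945306, − strand): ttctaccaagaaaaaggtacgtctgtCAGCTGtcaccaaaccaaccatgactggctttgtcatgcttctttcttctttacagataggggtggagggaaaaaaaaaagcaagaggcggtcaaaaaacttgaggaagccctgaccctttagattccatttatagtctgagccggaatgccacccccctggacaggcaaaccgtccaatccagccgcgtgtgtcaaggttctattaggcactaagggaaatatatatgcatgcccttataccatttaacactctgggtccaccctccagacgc
Actc1 (chr2:114052826-114053125, − strand): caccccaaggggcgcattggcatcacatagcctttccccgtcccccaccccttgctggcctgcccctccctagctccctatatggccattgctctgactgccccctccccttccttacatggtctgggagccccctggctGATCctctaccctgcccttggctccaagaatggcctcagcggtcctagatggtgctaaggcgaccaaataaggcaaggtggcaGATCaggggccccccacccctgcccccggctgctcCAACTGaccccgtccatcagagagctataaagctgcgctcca
Myf5 (chr10:107486085-107486384, − strand): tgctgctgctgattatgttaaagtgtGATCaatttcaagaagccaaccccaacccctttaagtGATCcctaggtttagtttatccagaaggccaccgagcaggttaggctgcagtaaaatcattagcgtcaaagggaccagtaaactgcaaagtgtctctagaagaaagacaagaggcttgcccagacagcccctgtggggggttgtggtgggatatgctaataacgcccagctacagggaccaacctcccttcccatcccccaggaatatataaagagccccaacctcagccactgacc
Myog (chr1:134289754-134290053, + strand): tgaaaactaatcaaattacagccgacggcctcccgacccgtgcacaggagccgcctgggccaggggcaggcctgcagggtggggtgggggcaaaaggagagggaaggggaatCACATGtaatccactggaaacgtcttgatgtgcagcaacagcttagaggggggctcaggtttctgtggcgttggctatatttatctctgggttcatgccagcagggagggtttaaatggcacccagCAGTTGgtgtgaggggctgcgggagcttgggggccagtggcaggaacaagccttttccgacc
The Myl1 window holds no GATC and 1 E-box. The Actc1 window holds 2 GATC sites and 1 E-box, the Myf5 window 2 GATC sites and no E-box, and the Myog window no GATC and 2 E-boxes. A match describes these letters and shows no binding. A region's score comes from its whole width and not from this window.

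Most muscle genes scored below 0 in both media. In OL, 28 of the 41 regions had a mean score below 0 at an adjusted p under 0.05, 11 lay above 0, and the Myh1 and Myh2 regions passed neither way. Over all regions of the table, 70.9% were called below 0 and 25.9% above 0 in OL. In OPC, 29 members were called below 0, 9 above and 3 neither way (Myh1, Myh2 and Actn2), where the whole table had 71.4% below and 25.5% above. The members' median score was −1.51 in OL and −1.57 in OPC, beside −1.47 in OL and −1.54 in OPC over all regions. The share of muscle genes on each side of 0 was thus near that of the table. Every call here is from limma, two-sided, with Benjamini-Hochberg adjustment over all 21534 regions. Library scores are given below in the order 18, 19, 20 in OL and 8, 9, 10 in OPC, means carry the SD of the 3 libraries, and differences are OL minus OPC with their SE.

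Levels varied more between genes than between media. All 6 libraries were below 0 in 28 regions, all 6 were above 0 in 9, and 4 regions (Myh1, Myh2, Myl1 and Actn2) had scores of both signs. The 9 were both Ttn regions, Neb, Ryr2, Ryr3, Myf5, Myf6, Actc1 and Mybpc1. The SD between libraries of a condition had a median of 0.099 over the members in OL and 0.099 in OPC, while the members' means covered −2.12 to 1.92 in OL and −2.516 to 1.8004 in OPC. Their differences between media ran from −0.52 to 1.31, with a median of 0.14. Over all regions the means covered −3.40 to 3.23 in OL and −3.60 to 3.30 in OPC, and the differences −1.69 to 1.46.

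**Figure D1:**
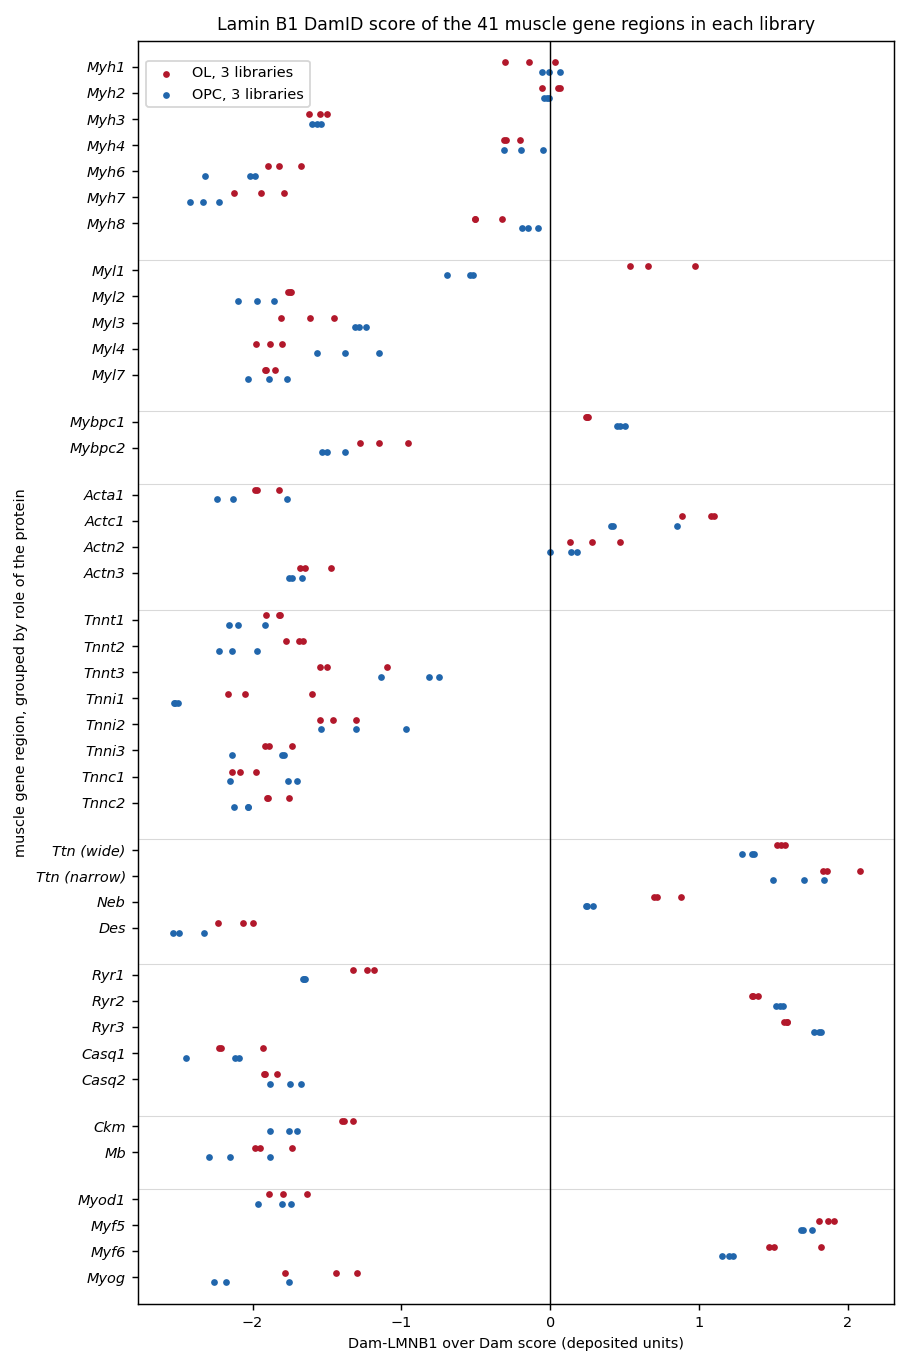
Lamin B1 score (deposited units) of each muscle region in every Dam-LMNB1 library, OL drawn beside OPC, grouped by role; points are libraries and the line at 0 divides more from less Dam-LMNB1 than Dam methylation. Troponins all lie below 0, Ttn, Neb, Ryr2, Ryr3, Myf5 and Myf6 lie above 0 in all 6 libraries, and Myl1 has its 3 OL points above 0 and its 3 OPC points below.

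The 4 myogenic factors, which bind as a family to the same E-boxes, were split between both sides of 0. Myf5, an early determination factor (chr10:107480908-107496134), had 1.802, 1.905 and 1.86 in the OL libraries and 1.70, 1.76 and 1.69 in the OPC libraries, the highest level of the 4 genes in each condition. Its neighbour Myf6, a factor of muscle fibre differentiation whose region overlaps that of Myf5 over 5.275 kb (chr10:107490860-107504729), had 1.47, 1.82 and 1.50 in OL and 1.199, 1.22 and 1.16 in OPC. The 2 groups of libraries did not overlap at Myf6, and its OL score was higher by 0.40 ± 0.097 (SE; adjusted p = 0.0128, limma). At Myf5 the groups did not overlap either, but the difference of 0.14 ± 0.068 did not pass (adjusted p = 0.133) except after quantile normalization (0.0391). Since the 2 regions share sequence, their scores are not separate measurements. The other pair lay below 0. Myod1, the determination factor that acts beside Myf5 (chr7:46366474-46381092), had −1.79, −1.89 and −1.63 in OL and −1.97, −1.804 and −1.74 in OPC, with overlapping groups. Myog, which drives terminal differentiation (chr1:134280004-134294548), had −1.78, −1.30 and −1.44 in OL and −1.75, −2.26 and −2.18 in OPC, so that OL library 18 fell within the OPC range. The Myog difference of 0.56 ± 0.16 was called (adjusted p = 0.0239, limma). It was not called when OL 19, OL 20, OPC 9 or OPC 10 was left out (adjusted p 0.0645 to 0.0794), nor after quantile normalization (adjusted p = 0.107) or with libraries set to the same mean and SD (0.0945).

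No sarcomeric myosin heavy chain, the motor of the thick filament, was called above 0. Of the 7 genes, 5 were below 0 in each condition. The group divides by genome position. The cardiac genes Myh6 and Myh7, which overlap over 7.92 kb on chromosome 14, had the lowest scores. Myh6, the alpha chain of the adult mouse heart (chr14:54939921-54976607), had −1.68, −1.82 and −1.896 in OL and −2.02, −1.98 and −2.32 in OPC. Myh7, the beta chain of slow and foetal cardiac muscle (chr14:54968688-55004549), had −1.79, −1.94 and −2.13 in OL and −2.22, −2.33 and −2.42 in OPC. Groups did not overlap at Myh6, with a difference of 0.31 ± 0.11 that did not pass (adjusted p = 0.0574). At Myh7 all OL libraries were likewise above all OPC libraries, and the difference of 0.37 ± 0.11 was called (adjusted p = 0.0248, limma). It was not called when OL 18, OL 19, OPC 9 or OPC 10 was left out (adjusted p 0.0609 to 0.0797), nor after quantile normalization (0.0912) or with libraries at the same mean and SD (0.0663).

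Myh6 and Myh7 each carry an intronic microRNA in mammals, Mir208a and Mir208b, whose own regions lie inside this locus. Both mature RNAs are shown because they share their seed, bases 2 to 8 in capitals (RefSeq, GRCm38.p6).
miR-208a-3p: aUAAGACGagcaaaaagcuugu
miR-208b-3p: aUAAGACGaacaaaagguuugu
The Mir208a region averaged −1.72 ± 0.20 in OL and −2.22 ± 0.26 in OPC (SD, n = 3 each), a difference of 0.50 (adjusted p = 0.0274, limma). The Mir208b region averaged −1.77 ± 0.091 in OL and −2.11 ± 0.17 in OPC, a difference of 0.34 (adjusted p = 0.0323). These regions are mostly flank shared with Myh6 and Myh7, so their scores are not measurements separate from those of the genes. The Mir208a difference was called, whereas that of the Myh6 region, which contains it, was not.

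The skeletal myosin heavy chains stand in a row on chromosome 11, and their levels followed that row. Myh3, the embryonic chain at its low-coordinate end (chr11:67068300-67104291), had −1.55, −1.50 and −1.62 in OL and −1.60, −1.54 and −1.57 in OPC. After a gap of 56.735 kb came Myh2, the fast IIa chain (chr11:67161027-67199517), with 0.064, −0.053 and 0.054 in OL and −0.0078, −0.024 and −0.044 in OPC. Both groups at Myh2 lay within 0.064 of 0, and the Myh2 mean was 1.58 units above that of Myh3 in OL and 1.54 in OPC. Myh1, the fast IIx chain, overlaps Myh2 over 9.404 kb and had 0.030, −0.30 and −0.14 in OL and 0.063, −0.058 and −0.0076 in OPC. Myh4, the fast IIb chain, had −0.29, −0.20 and −0.31 in OL and −0.049, −0.31 and −0.19 in OPC. Myh8, the perinatal chain (chr11:67267124-67310633), had −0.50, −0.51 and −0.33 in OL and −0.19, −0.079 and −0.15 in OPC, with no overlap between the groups. Of the skeletal heavy chains only Myh8 was called, lower in OL with a difference of −0.30 ± 0.077 (adjusted p = 0.0158, limma), and it was not called when OPC 9 was left out (adjusted p 0.0626). Beyond it, Myh13, the extraocular chain, averaged −1.08 ± 0.084 in OL and −0.93 ± 0.080 in OPC, and Gas7 averaged −2.11 ± 0.093 in OL and −2.02 ± 0.13 in OPC. On the other flank, Sco1 averaged −2.01 ± 0.18 in OL and −2.06 ± 0.086 in OPC. The fast chain genes thus formed a plateau near 0 between flanks near −2 in both media. These heavy chain genes are near-identical over long stretches, and no source used here states how reads that match more than 1 of them were placed, so their separate values are uncertain.

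**Figure D2:**
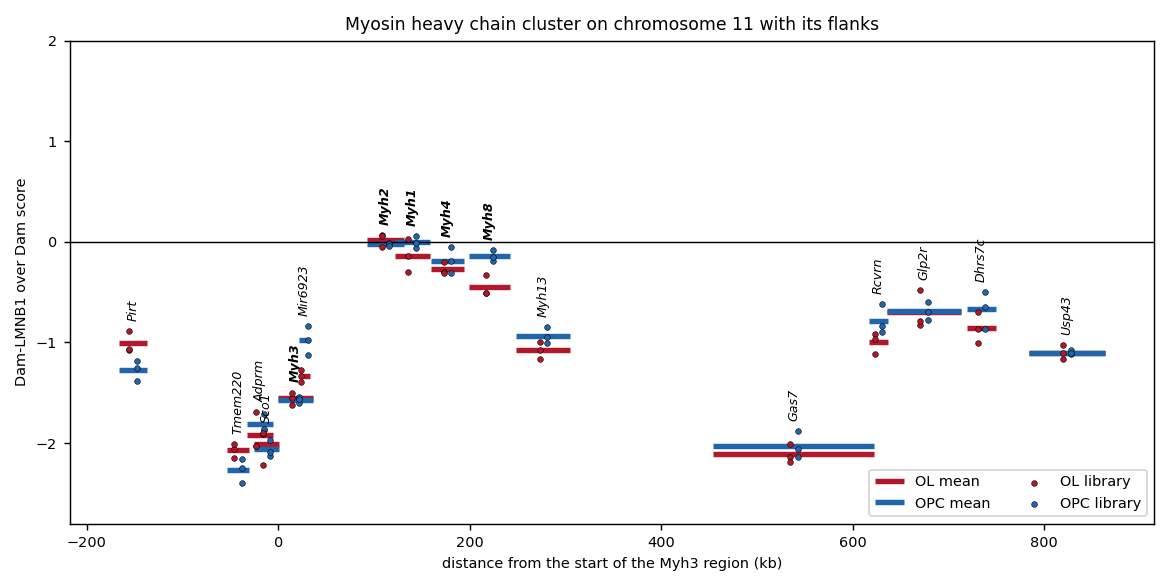
Mean lamin B1 score (deposited units) of regions along the myosin heavy chain cluster of chromosome 11 against distance in kb from the start of the Myh3 region. Each bar spans a region at its OL or OPC mean and points are the 3 libraries. Myh2 lies at 0.021 in OL and −0.025 in OPC, and the scores fall off on both sides, to −2.01 in OL at Sco1 and −2.11 in OL at Gas7. Further out they are higher again, with −1.01 in OL at Pirt and −0.70 in OL at Glp2r.

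The light chains, which brace the lever arm of myosin, held the largest difference of the list. Myl1, the essential light chain of fast fibres (chr1:66922296-66955056), had 0.97, 0.54 and 0.66 in OL and −0.52, −0.54 and −0.69 in OPC. Every OL library was above 0 and every OPC library below 0, which held for no other member. The difference was 1.31 ± 0.11 (adjusted p = 0.000184, limma), and the call held in each of the 12 alternative settings. The other 4 light chains lay below 0 in all 6 libraries. Myl4, the atrial and embryonic essential chain (chr11:104540663-104589219), had −1.81, −1.98 and −1.88 in OL and −1.15, −1.38 and −1.57 in OPC, and its OL score was lower with a difference of −0.52 ± 0.11 (adjusted p = 0.00829). Myl3, the ventricular and slow essential chain (chr9:110753681-110771794), had −1.62, −1.45 and −1.81 in OL and −1.29, −1.24 and −1.31 in OPC. Groups did not overlap at Myl4 or at Myl3, where the difference of −0.35 ± 0.10 was called (adjusted p = 0.0253) and was not called when OL 18, OL 20, OPC 8, OPC 9 or OPC 10 was left out (adjusted p 0.0504 to 0.0808). The regulatory chains Myl2 (ventricular and slow) and Myl7 (atrial) averaged −1.75 ± 0.011 and −1.89 ± 0.037 in OL and −1.97 ± 0.12 and −1.898 ± 0.13 in OPC, and neither difference passed (adjusted p = 0.0750 and 0.958). The 3 essential chains thus had 1 higher and 2 lower calls, and the 2 regulatory chains had none.

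The myosin-binding proteins C, which lie along the thick filament, moved in opposite directions from opposite sides of 0. Mybpc1, the slow form (chr10:88516279-88615152), had 0.25, 0.25 and 0.24 in OL and 0.47, 0.50 and 0.45 in OPC, above 0 in every library. Its difference was −0.22 ± 0.062 (adjusted p = 0.0221, limma), and it was not called when OL 20, OPC 8, OPC 9 or OPC 10 was left out (adjusted p 0.0545 to 0.0852). Mybpc2, the fast form (chr7:44499699-44534669), had −0.96, −1.15 and −1.28 in OL and −1.53, −1.50 and −1.38 in OPC, below 0 in every library. Its difference was 0.34 ± 0.098 (adjusted p = 0.0254), and it was not called when OL 18, OL 19, OPC 8 or OPC 9 was left out (adjusted p 0.0531 to 0.0750), nor with libraries at the same mean and SD (0.0531).

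Both sarcomeric actins, nearly identical proteins of the thin filament, lay on opposite sides of 0. Actc1, the cardiac and foetal skeletal form (chr2:114045284-114062875), had 0.88, 1.08 and 1.103 in OL and 0.85, 0.41 and 0.42 in OPC. Acta1, the adult skeletal form (chr8:123889758-123904775), had −1.82, −1.97 and −1.98 in OL and −2.13, −2.24 and −1.77 in OPC. The OL mean was 1.02 ± 0.12 at Actc1 and −1.93 ± 0.089 at Acta1, and the OPC mean was 0.56 ± 0.25 at Actc1 and −2.05 ± 0.24 at Acta1. OPC library 8 stood apart from OPC libraries 9 and 10 at Actc1 and came close to the lowest OL library, but the groups did not overlap. The Actc1 difference was 0.46 ± 0.12 (adjusted p = 0.0186, limma), and it was not called when OL 19, OL 20, OPC 9 or OPC 10 was left out (adjusted p 0.0506 to 0.0658). The Acta1 difference of 0.12 ± 0.12 did not pass (adjusted p = 0.466). Alpha-actinins cross-link actin at the Z-disc. Actn2, the form of all striated fibres (chr13:12267427-12350732), had 0.47, 0.13 and 0.28 in OL and −0.0036, 0.14 and 0.18 in OPC. Its OL mean was called above 0 (adjusted p = 0.00171) and its OPC mean was not (adjusted p = 0.153), while the difference of 0.19 ± 0.095 between them did not pass (adjusted p = 0.150). Actn3, the fast-fibre form, averaged −1.60 ± 0.11 in OL and −1.72 ± 0.048 in OPC and its difference did not pass (adjusted p = 0.309).

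All 8 troponin genes, the calcium switch of the thin filament, lay below 0 in all 6 libraries. Their OL means ran from −2.07 (Tnnc1) to −1.38 (Tnnt3) and their OPC means from −2.52 (Tnni1) to −0.90 (Tnnt3). Of all regions, 70.9% were called below 0 in OL and 71.4% in OPC. Most of the 8 genes share a locus with another, so 8 is not a count of separate loci. Troponin genes occur in pairs of a T and an I gene, and the calls were not the same in each pair, although the difference between pairs was not tested. Tnni1, slow skeletal troponin I (chr1:135789421-135812989), had −1.60, −2.05 and −2.17 in OL and −2.53, −2.52 and −2.50 in OPC. Tnnt2, cardiac troponin T, lies 13.344 kb further on (chr1:135826334-135854268) and had −1.66, −1.77 and −1.69 in OL and −2.14, −2.23 and −1.97 in OPC. Both members of this pair were higher in OL with no overlap, by 0.58 ± 0.14 at Tnni1 (adjusted p = 0.0119, limma) and 0.40 ± 0.093 at Tnnt2 (adjusted p = 0.0106). Lad1, whose region overlaps both, differed by 0.54. In the fast pair on chromosome 7 neither gene was called higher. Tnnt3, fast troponin T (chr7:142488836-142518009), had −1.095, −1.50 and −1.55 in OL and −0.75, −1.14 and −0.82 in OPC, so that OL library 18 overlapped OPC library 9. The Tnnt3 difference was −0.48 ± 0.14 (adjusted p = 0.0271), and it was not called when OL 19, OL 20, OPC 8 or OPC 10 was left out (adjusted p 0.0767 to 0.0838). Its partner Tnni2, fast troponin I, 42.43 kb away, averaged −1.44 ± 0.12 in OL and −1.27 ± 0.29 in OPC, and its difference of −0.17 ± 0.14 did not pass (adjusted p = 0.369). In the pair of Tnnt1 (slow troponin T) and Tnni3 (cardiac troponin I), whose regions overlap over 9.668 kb, OL averaged −1.85 ± 0.051 at Tnnt1 and −1.85 ± 0.098 at Tnni3, and OPC averaged −2.06 ± 0.12 at Tnnt1 and −1.91 ± 0.20 at Tnni3. Neither passed (adjusted p = 0.106 and 0.690). Both troponin C genes, Tnnc1 (slow and cardiac) and Tnnc2 (fast), gave no call either, with differences of −0.20 ± 0.12 and 0.21 ± 0.084 (adjusted p = 0.238 and 0.0804). Without OPC library 8, Tnnc1 was called lower at an adjusted p of 0.0378.

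The titin and nebulin genes lay above 0 in both media, and Neb and the wide Ttn region were higher in OL. Titin spans from Z-disc to M-line as the spring of the sarcomere. The wide Ttn region (chr2:76701984-76992547) had 1.57, 1.53 and 1.55 in OL and 1.29, 1.37 and 1.36 in OPC, with no overlap and a difference of 0.21 ± 0.065 (adjusted p = 0.0318, limma) that was not called when OL 19, OL 20, OPC 8, OPC 9 or OPC 10 was left out (adjusted p 0.0551 to 0.102). The narrow region inside it (chr2:76833965-76851836) had 1.86, 1.83 and 2.08 in OL and 1.49, 1.84 and 1.71 in OPC, and its difference of 0.24 ± 0.10 did not pass (adjusted p = 0.0973). Neb, which encodes nebulin, the ruler of thin filament length (chr2:52134647-52348798), had 0.88, 0.69 and 0.72 in OL and 0.28, 0.24 and 0.25 in OPC. The lowest OL library was far above the highest OPC library, and the difference was 0.50 ± 0.072 (adjusted p = 0.00149). The call held in each of the 12 alternative settings, where the difference was 0.45 to 0.54. Des encodes desmin, the muscle intermediate filament (chr1:75350292-75370579), and it lay at the other end of the range, with −2.06, −2.23 and −1.99 in OL and −2.54, −2.33 and −2.49 in OPC. The Des difference was 0.36 ± 0.098 (adjusted p = 0.0221). It was not called when OL 18, OL 20, OPC 8 or OPC 10 was left out (adjusted p 0.0508 to 0.0754), nor after quantile normalization (0.146) or with libraries at the same mean and SD (0.117).

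The 3 ryanodine receptors, the release channels of the calcium store, lay far apart in level. Ryr3, the form found in many tissues including brain (chr2:112629382-113227083), had 1.59, 1.59 and 1.57 in OL and 1.77, 1.82 and 1.805 in OPC. Ryr2, the cardiac form, which neurons also express (chr13:11551103-12116945), had 1.40, 1.36 and 1.35 in OL and 1.51, 1.55 and 1.56 in OPC. Both were among the highest members and tight between libraries, with every OL library below every OPC library. The Ryr3 difference of −0.22 ± 0.064 was called (adjusted p = 0.0269, limma) and was not called when OL 19, OL 20, OPC 8, OPC 9 or OPC 10 was left out (adjusted p 0.0567 to 0.0940). The Ryr2 difference of −0.17 ± 0.064 missed (adjusted p = 0.0646) and passed without OL library 18 (0.0468). Ryr1, the skeletal form (chr7:29001340-29135151), went the other way on both counts, with −1.185, −1.23 and −1.32 in OL and −1.66, −1.64 and −1.65 in OPC. It was higher in OL by 0.41 ± 0.076 (adjusted p = 0.00481), and the call held in each of the 12 alternative settings, where the difference was 0.31 to 0.44. Calsequestrins buffer calcium inside the store, and both genes lay below 0 without a called difference. Casq1, the skeletal form, averaged −2.12 ± 0.17 in OL and −2.22 ± 0.20 in OPC (adjusted p = 0.579), and Casq2, the cardiac form, averaged −1.89 ± 0.046 in OL and −1.77 ± 0.10 in OPC (adjusted p = 0.287). Quantile normalization called Casq2 lower (0.0421).

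Of the energy genes, Ckm, the muscle creatine kinase (chr7:19401094-19423583), had −1.38, −1.32 and −1.40 in OL and −1.76, −1.88 and −1.70 in OPC. No OL library overlapped an OPC library, and the difference was 0.41 ± 0.082 (adjusted p = 0.00609, limma). The call held in each of the 12 alternative settings, where the difference was 0.30 to 0.45. Mb, the oxygen store myoglobin, averaged −1.89 ± 0.13 in OL and −2.11 ± 0.21 in OPC, and its difference of 0.22 ± 0.12 did not pass (adjusted p = 0.177).

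Set side by side, 13 muscle regions were higher and 6 lower in OL than in OPC, and 22 passed neither way. The table as a whole had 23.0% higher and 10.9% lower, and the members had 31.7% higher and 14.6% lower. The 13 were Myl1, Tnni1, Myog, Neb, Actc1, Ckm, Ryr1, Tnnt2, Myf6, Myh7, Des, Mybpc2 and the wide Ttn region, and the 6 were Myl4, Tnnt3, Myl3, Myh8, Mybpc1 and Ryr3. At an unadjusted p under 0.05 the members numbered 25, but the share of all regions at that cut was not counted, so this number has no background. Libraries of OL and OPC did not overlap in 23 members, 17 of them higher in OL, where 48.9% of all regions showed no overlap. The median difference was 0.14 over the members and 0.097 over all regions. Of all called regions, 67.9% were higher in OL, and this share was 50.5% after quantile normalization and 50.5% with libraries at the same mean and SD. The members then had 11 higher and 7 lower after quantile normalization, and 9 higher and 6 lower at the same mean and SD. Apart from Myl1 no called difference took a gene across 0, since 8 of the higher genes stayed below 0 and the other 4 regions (Neb, Actc1, Myf6 and wide Ttn) were above it in both media.

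**Figure D3:**
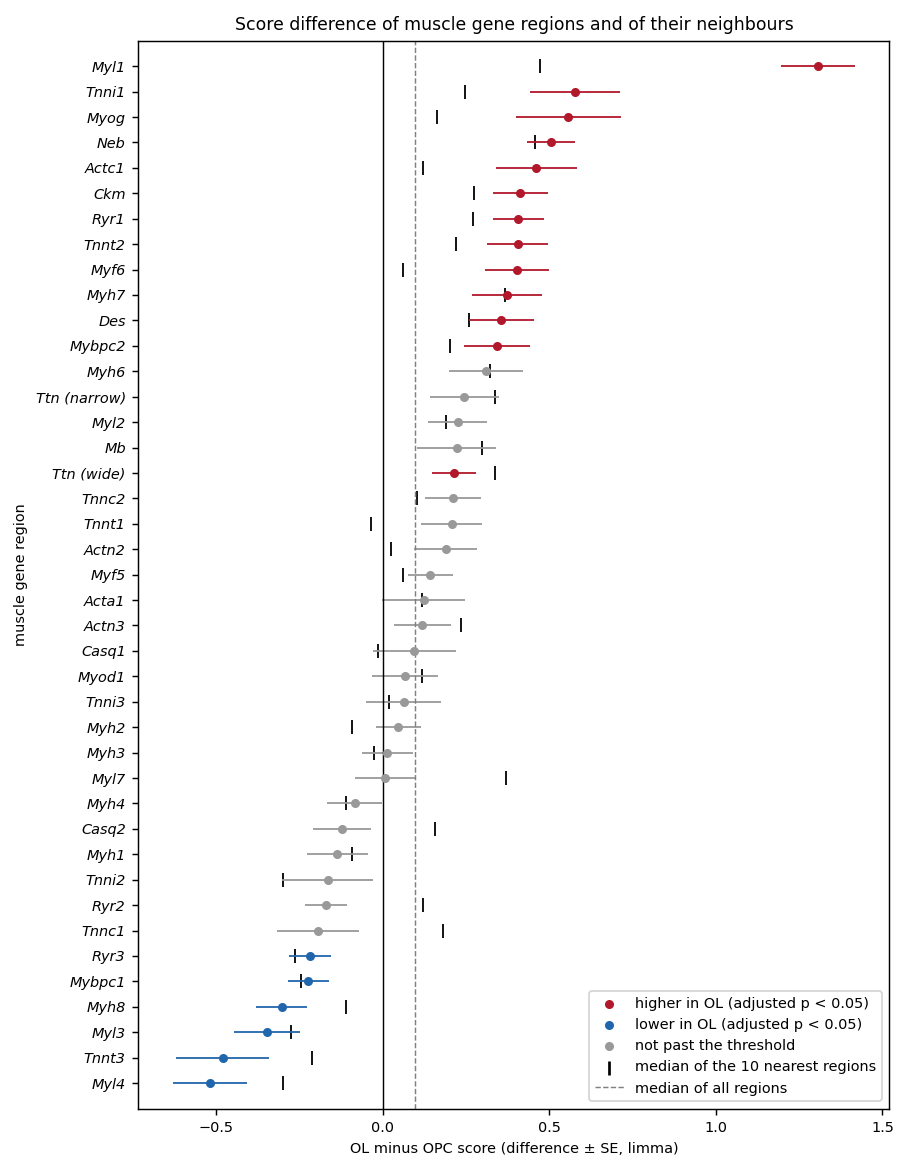
Difference in lamin B1 score, OL minus OPC (deposited units), of each muscle region with its SE, ordered by size and coloured by limma call; black ticks give the median difference of the 10 nearest regions and the dashed line that of all regions. Myl1 stands apart at 1.31, the other called members lie between −0.52 and 0.58, and 22 regions pass neither way.

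The members were also counted by fibre type. Of 11 genes counted as fast skeletal, OL had 1 above 0 and 8 below, and OPC had 0 above and 9 below, with medians of −1.25 in OL and −1.27 in OPC. These 11 include Ryr1 and Casq1, given above as skeletal forms without a fibre type. The OL median is the Ryr1 value, and Ryr1 is among the higher calls of this class. Of 14 slow skeletal or cardiac genes, 2 were above 0 and 12 below in OL, and 2 and 12 in OPC, with medians of −1.85 in OL and −1.90 in OPC. Mybpc1, the slow form of its protein, was counted in neither class. Its mean was 0.25 in OL and 0.47 in OPC, and it was called lower, so the slow class depends on leaving it out. Higher calls numbered 3 of the 11 fast genes and 4 of the 14 slow or cardiac genes, and lower calls 1 of the fast and 2 of the slow or cardiac genes. The shares were 27.3% of the fast and 28.6% of the slow or cardiac genes higher, and 9.09% and 14.3% lower. All regions had 23.0% higher and 10.9% lower. The difference between these classes was not tested.

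In the authors' deposited table, 2 members, Ryr3 and Ryr2, had an adjusted p under 0.05 for OL against OPC, at 0.0414 and 0.0445. That table gives this to 676 regions, 3.14% of all. Myl1 has 0.0656 there, Ckm 0.0814, Ryr1 0.0835, Neb 0.0849 and Myl4 0.136. No source used here states how that value was made.

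Members lay about as close to the level of their surroundings as regions of the table in general. For each region the median of the 5 nearest non-overlapping regions on each side was taken. Members differed from it by a median of 0.39 in OL and 0.33 in OPC, beside 0.38 in OL and 0.39 in OPC over all regions. They lay on the same side of 0 as their neighbours in 32 of 41 cases in OL and 36 in OPC. That share was not counted over all regions, of which 70.9% were called below 0 in OL and 71.4% in OPC. The members that stood out were mostly higher than their neighbours. In OL 8 members lay more than 1 unit above their neighbours, namely Myh1, Myh2, Myl1, both Ttn regions, Neb, Ryr2 and Ryr3, which is 19.5% of members against 7.93% of all regions. In OPC there were 7, or 17.1%, against 8.19%. Both Ttn regions share sequence, as do Myh1 and Myh2, and each pair was set against the same neighbours. These counts are therefore not counts of separate loci. Myh3 was the 1 member more than 1 unit below its neighbours, in both media. Those neighbours include the heavy chains Myh2, Myh1, Myh4 and Myh8 near 0. The nearest on its other side, Adprm and Tmem220, lay below Myh3, at −1.92 and −2.07 in OL against −1.56. Myh3 was thus between its 2 adjacent flanks in level. At wide Ttn the score was 1.55 in OL and 1.34 in OPC, while the neighbours' median was −0.25 in OL and −0.62 in OPC. At Ryr3 it was 1.58 in OL and 1.8004 in OPC, and the neighbours' median −0.12 in OL and 0.0032 in OPC. At Neb it was 0.76 in OL and 0.26 in OPC, and the neighbours' median −0.49 in OL and −1.105 in OPC. Myf5 did not stand out, since its neighbours, which include Ptprq at 2.62 in OL and 2.55 in OPC, had a median of 1.99 in OL and 1.89 in OPC. The share above neighbours was not tested against the table.

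The direction of a called member was also that of the median difference of its neighbours. All 13 higher members had neighbours whose median difference was above 0, as had 91.0% of all higher regions. Against the median difference of the table, 0.097, the neighbours were above it for 12 of the 13 members and for 78.1% of all higher regions. All 6 lower members had neighbours with a median difference below 0, as had 76.0% of all lower regions. Single neighbours did not always share the direction. At Actc1 3 neighbours were called higher and 2 lower, at Myl3 2 higher and 4 lower, and at Mybpc1 2 higher and 6 lower. No neighbour of Myf6 was called, and their median difference was 0.059. At Neb the 4 nearest genes on its lower-coordinate side, Rif1, Tnfaip6, Nmi and Rbm43, were each called higher, with differences of 0.79, 0.88, 0.87 and 0.94, more than Neb itself. Of the 4 nearest on its other side, Arl5a was called with 0.24, while Cacnb4, Stam2 and Fmnl2 had 0.10, 0.31 and −0.10 and were not called. At Myl4 the 5 nearest genes on its higher-coordinate side, Itgb3, Efcab3, Mettl2, Tlk2 and Mrc2, were each called lower, with differences of −0.99, −0.64, −0.55, −0.71 and −0.44, whereas none of the 5 on its other side was called, and Cdc27, which overlaps it, differed by −0.50. Beside Ryr3, Tmco5b and Fmn1 were called lower, with differences of −0.38 and −0.42.

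At Myl1 the nearest genes shared the direction and not the level. Acadl averaged −1.77 ± 0.37 in OL and −2.34 ± 0.19 in OPC, and Lancl1 −1.25 ± 0.11 in OL and −1.86 ± 0.076 in OPC. Both flanking genes stayed below 0 in both media, with called differences of 0.57 and 0.61 (adjusted p = 0.0304 and 0.00151, limma). The next gene, Cps1, which encodes a urea cycle enzyme, averaged 1.105 ± 0.068 in OL and 0.27 ± 0.069 in OPC, a called difference of 0.83 (adjusted p = 0.000186), and Unc80 on the other side had a called difference of 0.57. Kansl1l and Rpe, which lie between Unc80 and Acadl, differed by 0.13 and 0.086 and were not called (adjusted p = 0.379 and 0.520). No other region of the table overlaps Myl1, so its score is of its own 32.761 kb. The difference at Myl1 was larger than at each of these 6 genes.

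**Figure D4:**
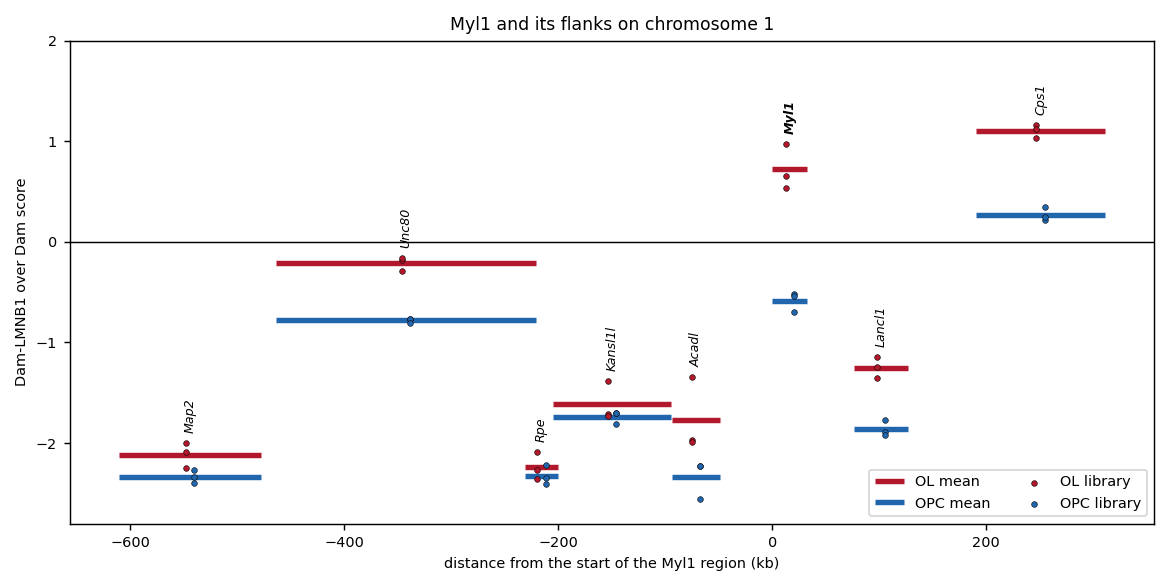
Mean lamin B1 score (deposited units) of Myl1 and its neighbours against distance in kb from the start of the Myl1 region on chromosome 1. Each bar spans a region at its OL or OPC mean and points are the 3 libraries. Myl1 is at 0.72 in OL and −0.58 in OPC between Acadl (−1.77 in OL) and Lancl1 (−1.25 in OL), and Cps1 is at 1.105 in OL.

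Width and local gene density were set beside the scores. Members called above 0 in OL had a median width of 83.3 kb and members below 0 one of 23.5 kb. Of 5 members wider than 100 kb, 4 were above 0 in OL and Ryr1 was the exception, against 36.7% of the 2469 such regions in the table. The highest OL means were those of short regions, narrow Ttn, Myf5 and Myf6, and Actc1 was also short and above 0. Spearman's rank correlation between width and OL score was 0.28 over the 41 regions and −0.079 over the table, and for OPC 0.31 and −0.040. The number of other regions within 500 kb ran from 3 to 12 around members above 0 (median 7) and from 5 to 52 around members below 0 (median 24.5). Over the whole table the median was 11 above 0 and 17 below. These are descriptions over regions, of which 31 of 41 overlap another region and several share a locus.

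**Figure D5:**
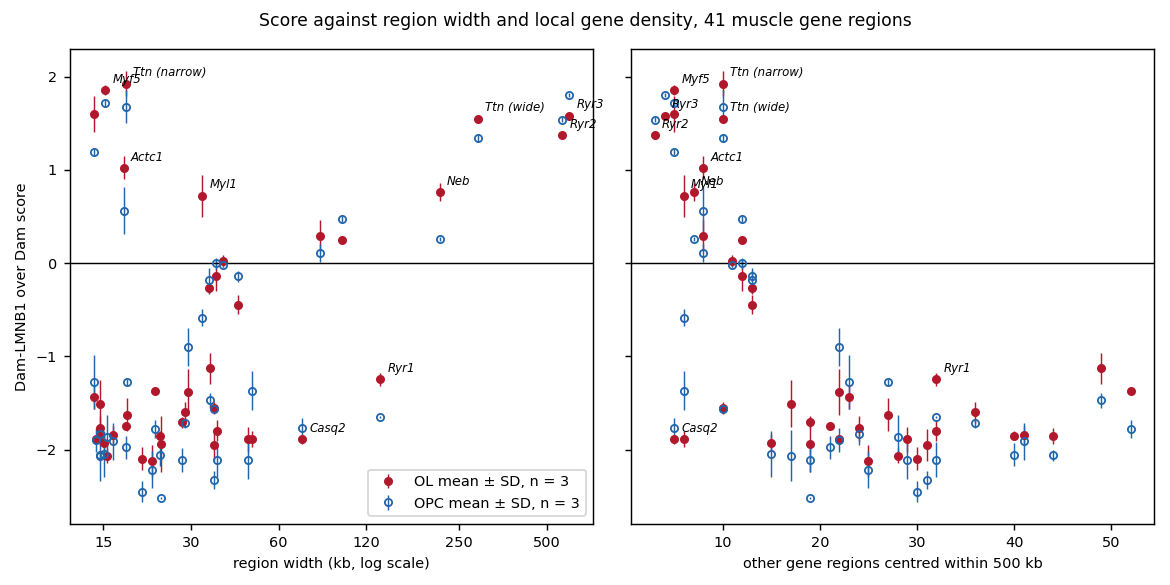
Mean lamin B1 score (deposited units, ± SD of 3 libraries) of OL (filled) and OPC (open) for the 41 muscle regions against region width in kb (log axis) and against the number of regions within 500 kb. High scores lie at large widths (Ryr3, Ryr2, Ttn, Neb) or low density, with Myf5 and Myf6 short and high and Ryr1 long and at −1.25 in OL.

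Promoter windows were found in RefSeq for 33 of the 40 genes, 39 windows in all. GATC, the Dam site, was in 18 of the 39 windows (46.2%), beside 48.0% of 32851 promoter windows of the same length. The E-box CANNTG (its own reverse complement pattern, so both strands are covered) was in 34 (87.2%), beside 72.3% of all. The E-box CAGCTG, a subset of CANNTG that was added after the scores were seen, was in 14 (35.9%), beside 16.3%. Mb, Myl2 and Tnni1 each gave more than 1 of these 14 windows. Those of Mb overlap, as do those of Tnni1, so the 14 are not separate genes. GC content had a median of 56.7% over the members and 52.7% over all windows. Windows of genes above 0 in OL had a median GC of 51.7% (7 windows, 5 with GATC), and those of genes below 0 had 57.3% (30 windows, 11 with GATC); the remaining windows are those of Myh1 and Myh2. The printed Myog and Myl1 windows, without GATC, belong to a gene below 0 and to the gene that crossed 0. No difference in these shares was tested.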

How the data were processed

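Scores of the 6 Dam-LMNB1 libraries over 21534 gene regions were used as the authors deposited them. Per the file headers, each score sets 1 library against the pooled Dam libraries of its condition. The submitters' processing notes name cutadapt (1.9.1), BWA (0.7.17) and mm10 as build. No source used here gives the read depth or the step from reads to scores. The 5 Dam libraries have no column of their own and are not analysed here. Region starts in the deposited table count from 0 and are printed from 1. The authors' deposited adjusted p-value is quoted only where named.

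A limma model (version 3.58.1, R 4.3.3) with 1 mean per condition and a variance trend covered all regions and gave OL minus OPC and each mean against 0, two-sided, with Benjamini-Hochberg adjustment and a threshold of 0.05. No logarithm, pseudocount or filter was applied. The fit was tested on simulated data. Library numbers differ between conditions, so nothing pairs them. Neighbours were the 5 nearest non-overlapping regions on each side. Promoter and microRNA sequences came from RefSeq (GRCm38.p6). All members are named; from each other list, the 2 called genes with the largest difference and those with the highest and lowest mean are named. Alternatives changed the scaling, the variance model, the regions tested, the threshold, the neighbours and, in turn, each library. The members and lists were chosen with earlier results of these data known.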

Additional observations from a re-analysis of the deposited data

How the results depend on the processing

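No paired analysis was possible because the OL and OPC libraries share no replicate number. Over 12 alternative settings no called member changed direction, and Ckm, Myl1, Myl4, Neb and Ryr1 kept their call in each. Acta1, Myod1, Casq1, Tnni3, Myh3 and Myl7, with uncalled differences of 0.0067 to 0.12, had −0.14 to −0.031 after quantile normalization and −0.11 to −0.00293 with libraries at the same mean and SD, uncalled there too. At an adjusted p under 0.01, 4 members were higher and 1 lower in OL than in OPC, against 13 and 6 at 0.05. Of all 21534 regions, 2039 were higher and 1114 lower at 0.01, against 4963 and 2345 at 0.05. With each library left out in turn, 8 to 10 members were higher and 2 to 6 lower. The whole table then had 3136 to 4132 regions higher and 1673 to 2552 lower. In OL 11 members stayed above 0 and 28 to 29 below, and in OPC 9 stayed above and 28 to 29 below. The calls lost when a library was left out were those of Actc1, Des, Mybpc1, Mybpc2, Myh7, Myh8, Myl3, Myog, Ryr3, Tnnt3 and wide Ttn, and the fits then had fewer libraries. With 10 neighbours, 3 neighbours or overlapping neighbours, members differed from their neighbours by a median of 0.31 to 0.39 in OL and 0.30 to 0.36 in OPC. Unknown read depth and a shared Dam denominator limit every value: variation between Dam libraries is in none of the errors.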

Other observations

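Muscle genes outside the 40 members also lay mostly below 0, as did regions of the table in general. Of 114 regions of 111 further muscle genes, 22 were above 0 and 87 below in OL, and 24 above and 85 below in OPC, with medians of −1.41 in OL and −1.44 in OPC; 27 were higher and 13 lower in OL (limma). That is 23.7% higher and 11.4% lower, close to the 23.0% and 10.9% of all regions. Among 40 regions of sarcomere and Z-disc genes, 10 were higher and 5 lower, or 25.0% and 12.5%. Tcap, which caps titin at the Z-disc, was higher (difference 0.57), and Murc, a caveolar protein of muscle, was lower (−0.71). Xirp2 and Myot had the highest scores of this list, with 1.78 and 1.63 in OL and 1.58 and 1.58 in OPC, and Cryab and Tpm1 the lowest, with −2.08 and −2.10 in OL and −2.55 and −2.28 in OPC.

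Among 26 genes of excitation-contraction coupling, 9 were higher (34.6%) and 2 lower (7.69%) in OL. Kcnj2, an inward rectifier potassium channel, had −0.65, −0.58 and −0.77 in OL and 0.23, 0.36 and 0.17 in OPC. Its libraries lay below 0 in OL and above 0 in OPC, the reverse of Myl1, with a difference of −0.92 ± 0.081 (SE; adjusted p = 0.000213, limma). Bin1, which shapes the transverse tubule, was higher by 0.55. Trdn, which encodes the junctional protein triadin, had the highest score of these lists, 2.44 ± 0.17 in OL and 2.40 ± 0.017 in OPC, and Jph1 had 1.81 ± 0.066 in OL and 1.75 ± 0.075 in OPC. Atp2a2, the calcium pump that cells outside muscle also use, had the lowest, −2.77 ± 0.25 in OL and −2.71 ± 0.024 in OPC. Chrnb1 averaged −2.15 in OL and −2.38 in OPC.

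Among 27 regions of muscle membrane and metabolism genes, 4 were higher and 4 lower, 14.8% each. Ampd1, muscle AMP deaminase, was higher by 0.85 ± 0.084, and Sspn, which encodes sarcospan, was lower with a difference of −0.81 ± 0.076. Trim55 and Sgcd had the highest scores (1.62 and 1.55 in OL, 1.40 and 1.61 in OPC), and Sgcb and Cox7a1 the lowest (−2.28 and −2.11 in OL, −2.42 and −2.51 in OPC). Of 21 regions of other muscle transcription factors and regulators, 4 were higher (19.0%) and 2 lower (9.52%). Srf was higher by 0.34 and Eya1 lower with a difference of −0.43. Mef2c and Mstn were the highest (1.23 and 1.24 in OL, 1.23 and 1.176 in OPC), and Nkx2-5 and Tead1 the lowest (−2.40 and −2.39 in OL, −2.41 and −2.35 in OPC).

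The non-muscle and smooth muscle paralogs of the members, 28 genes, had none above 0 in either medium and 27 below in each, with medians of −1.83 in OL and −2.09 in OPC; 6 were higher (21.4%) and 1 lower (3.57%) in OL. Of all regions, 25.9% were called above 0 in OL and 25.5% in OPC, and 70.9% and 71.4% were called below. The highest paralog was Myh11, the smooth muscle heavy chain, at 0.021 ± 0.13 in OL and 0.045 ± 0.052 in OPC. Nefm came next, at −0.31 ± 0.11 in OL and −0.63 ± 0.077 in OPC. Tcf4 and Actn4 were the lowest, at −2.54 and −2.38 in OL and −2.56 and −2.58 in OPC. Ckb, the brain creatine kinase, was higher in OL by 0.61 ± 0.095, as its muscle paralog Ckm was by 0.41, and Nefl by 0.44. The difference between these lists and the members was not tested.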
